A study of Homo sapiens with 9 samples.

Results

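The neuronal cytoskeleton genes TUBB3, MAPT, DCX, STMN2, STMN3, STMN4, NEFL, NEFM, INA and GAP43 were taken as the rows of the count table that carry one of these 10 gene symbols. They were 10 of the 67140 genes listed, in 12 rows, because MAPT has 3 rows of which only ENSG00000186868 held counts. Ribosomal RNA was removed from total RNA of DMS273, a line grown from a human small cell lung cancer, and 9 libraries were sequenced, 3 in each of 3 groups. ATG7 KO cells had ATG7 knocked out with the CRISPRv2 vector. ATG7/SQSTM1 KO cells had ATG7 and SQSTM1 knocked out with the same system. Control cells carried a guide labelled sgScr, and their genotype is given as WT. All cells were grown in RPMI medium with fetal bovine serum, and no drug treatment is part of these libraries. The labels do not say whether a knockout line is a clone or a pool, or whether the libraries of a group are separate cultures. If they are not, the p-values below measure no more than a spread between samples that may be technical.

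ATG7 encodes the E1-like enzyme needed to couple LC3 family proteins to membranes in autophagy, and SQSTM1 encodes p62, an autophagy receptor. Neurons build their axons on microtubules made of alpha- and beta-tubulin, which tau and doublecortin bind and stabilise and which stathmins take apart, and on neurofilaments, which fill the axon and set its calibre. Small cell lung cancer is a neuroendocrine tumour, and many of its lines transcribe such neuronal genes outside the nervous system.

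All 7 genes with enough counts to be tested were lower in ATG7 KO than in control, and all 7 were higher in ATG7/SQSTM1 KO than in ATG7 KO. These are TUBB3, MAPT, STMN3, NEFL, NEFM, INA and GAP43. The median log2 change of the 7 was −1.12 in ATG7 KO against control, 1.09 in ATG7/SQSTM1 KO against ATG7 KO and 0.09 in ATG7/SQSTM1 KO against control, where over all 18847 tested genes the medians were −0.02, 0.02 and −0.01. In ATG7/SQSTM1 KO against control 3 of the 7 were higher (GAP43, STMN3 and NEFM), 1 was lower (MAPT), and TUBB3, NEFL and INA did not pass the threshold. A gene was called at a Benjamini-Hochberg adjusted p under 0.05 from edgeR's quasi-likelihood test over all tested genes.

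Changes of this kind were common in these cells, so the counts of members, and of the related lists below, are read against the share of all tested genes called. In ATG7 KO against control 56.7% of tested genes were called, 28.3% lower and 28.4% higher. In ATG7/SQSTM1 KO against ATG7 KO 60.5% were called, 29.9% lower and 30.5% higher. In ATG7/SQSTM1 KO against control 38.6% were called, 19.6% lower and 19% higher. The share of all tested genes whose libraries did not overlap between groups was not computed. A lack of overlap is thus given as a description and not as a trait of the members. TUBB and KRT8, which are not members, also had no overlap between any of the groups. Each pair of these comparisons shares the libraries of one group, so an opposite sign between the fall in ATG7 KO and the rise over ATG7 KO does not come from independent samples. DCX, STMN2 and STMN4 had too few counts to be tested and are described by their counts.

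Library totals ran from 28675576 to 34222098 counts. Both targeted genes were low in the groups labelled as their knockouts. ATG7 averaged 11.7 CPM in ATG7 KO and 10.6 CPM in ATG7/SQSTM1 KO, against 27.1 CPM in control. SQSTM1 averaged 51.9 CPM in ATG7/SQSTM1 KO, against 391 CPM in ATG7 KO and 376 CPM in control. CPM here is the count scaled to library size after TMM, which corrects for library composition. Of 11 neuroendocrine markers, by which the label of the cells was checked, all were detected, and their summed level was 179 to 183 CPM in ATG7 KO, 504 to 510 CPM in ATG7/SQSTM1 KO and 472 to 486 CPM in control.

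RefSeq promoter windows of GRCh38.p14 were used, each with 250 bases before and 50 after a transcription start. They were examined for 5 of the 10 genes, namely TUBB3, STMN3, INA, DCX and GAP43. Windows of the other genes, among them the tested NEFL, NEFM and MAPT, were not examined, so those genes are left out of this comparison. The windows below belong to the 4 tested genes among the 5 examined, and are shown to let their start regions be compared. All 4 were lower in ATG7 KO than in the other groups, while the log2 change in ATG7/SQSTM1 KO against control was 0.92 for GAP43, 0.15 for STMN3, 0.09 for INA and −0.06 for TUBB3. They lie at chr10:103276888-103277187 on the plus strand for INA, at chr3:115623260-115623559 on the plus strand for GAP43, at chr20:63652717-63653016 on the minus strand for STMN3 and at chr16:89923092-89923391 on the plus strand for the downstream start of TUBB3, and are written 5′ to 3′ on the strand of the gene. Capitals mark matches to any of the 4 motifs searched on both strands: CAGATG, an E-box of NEUROD-type factors; CAGCACC and GGACAG, letters of the left and right parts of the RE1 element bound by the repressor REST; and TATAAA, the TATA box.
INA: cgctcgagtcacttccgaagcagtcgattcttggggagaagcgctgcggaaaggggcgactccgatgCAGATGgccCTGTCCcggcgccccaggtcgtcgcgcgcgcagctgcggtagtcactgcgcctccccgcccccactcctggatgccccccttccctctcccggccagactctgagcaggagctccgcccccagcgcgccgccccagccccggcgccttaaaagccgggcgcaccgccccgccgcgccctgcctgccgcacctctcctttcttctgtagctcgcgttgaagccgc
GAP43: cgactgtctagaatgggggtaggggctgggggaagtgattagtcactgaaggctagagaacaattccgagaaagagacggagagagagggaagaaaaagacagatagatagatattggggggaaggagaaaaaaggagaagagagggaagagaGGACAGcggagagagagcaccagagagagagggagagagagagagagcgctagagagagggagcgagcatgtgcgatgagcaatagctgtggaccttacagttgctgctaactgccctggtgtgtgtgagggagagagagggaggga
STMN3: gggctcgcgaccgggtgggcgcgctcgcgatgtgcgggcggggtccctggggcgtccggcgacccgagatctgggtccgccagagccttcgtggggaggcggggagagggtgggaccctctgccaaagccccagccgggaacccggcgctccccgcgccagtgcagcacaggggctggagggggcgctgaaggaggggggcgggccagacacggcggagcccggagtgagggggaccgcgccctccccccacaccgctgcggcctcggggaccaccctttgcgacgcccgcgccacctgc
TUBB3: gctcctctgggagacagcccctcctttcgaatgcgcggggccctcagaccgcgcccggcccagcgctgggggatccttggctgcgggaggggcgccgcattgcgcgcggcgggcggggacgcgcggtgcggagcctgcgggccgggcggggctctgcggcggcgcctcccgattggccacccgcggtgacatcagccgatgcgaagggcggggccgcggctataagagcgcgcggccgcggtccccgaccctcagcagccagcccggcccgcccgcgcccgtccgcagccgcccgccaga

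The INA window held CAGATG from −183 to −178 and, on the other strand, the letters of GGACAG from −174 to −169, counted from the start, and these do not overlap. The GAP43 window held GGACAG from −97 to −92. In the STMN3 window and the TUBB3 window shown none of the 4 motifs was found, and the upstream TUBB3 window, not shown, held GGACAG from −170 to −165. Of 35116 windows of the same length, 14.7% held CAGATG, 7.75% CAGCACC, 20.5% GGACAG and 11.5% TATAAA. A match is a run of letters, and none of these windows was measured for binding. The windows shown also differed in base composition, with 79% GC and 47 CpG dinucleotides in the TUBB3 window, 77.7% and 35 in STMN3, 71.3% and 35 in INA, and 52.7% and 7 in GAP43, against medians of 58.7% and 14 over all windows. The upstream TUBB3 window differed from the one shown, with 65.3% GC and 9 CpG dinucleotides.

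TUBB3 (ENSG00000258947; GRCh38 chromosome 16, 89921392 to 89938761, plus strand) encodes class III beta-tubulin, the beta-tubulin used as a marker of neurons. The ATG7 KO libraries held 31.3, 32.6 and 32.5 CPM of TUBB3, the ATG7/SQSTM1 KO libraries 69.3, 65.8 and 67.8 CPM, and the control libraries 71.8, 69 and 71.3 CPM. Every ATG7 KO library lay below every other library, while ATG7/SQSTM1 KO and control overlapped. In ATG7 KO it fell to a level 0.455 times that of control (log2 change −1.14, SE 0.039, edgeR adjusted p = 5.19e-16). Against ATG7 KO it was 2.1-fold higher in ATG7/SQSTM1 KO (log2 change 1.07, SE 0.039, edgeR adjusted p = 1.53e-15). ATG7/SQSTM1 KO and control differed by −0.06 on the log2 scale (SE 0.037, edgeR adjusted p = 0.19). TUBB3 shares 1584 exonic bases, 35.8% of its exon sequence, with the same-strand gene AC092143.1, which held 44 counts in ATG7 KO, all in replicate 1, and 0 in the other groups.

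MAPT (chromosome 17, 45894382 to 46028334, plus strand) encodes tau, which binds along axonal microtubules. Its levels were 36.6, 31.5 and 36.9 CPM in ATG7 KO, 77.3, 74.3 and 72 CPM in ATG7/SQSTM1 KO, and 93.2, 92.8 and 92.3 CPM in control. The 3 groups did not overlap, and the ATG7/SQSTM1 KO libraries lay between the other groups. MAPT had the largest fall of the 7 in ATG7 KO against control, with a log2 change of −1.41 (SE 0.049, edgeR adjusted p = 5.08e-15). Against ATG7 KO it was higher in ATG7/SQSTM1 KO by 1.09 on the log2 scale (SE 0.049, edgeR adjusted p = 2.55e-13). It was the only one of the 7 below control in ATG7/SQSTM1 KO past the threshold (log2 change −0.32, SE 0.046, edgeR adjusted p = 1.84e-05). The antisense gene MAPT-AS1, which shares 75 exonic bases with MAPT, had 0, 0 and 0 counts in ATG7 KO, 6, 10 and 8 in ATG7/SQSTM1 KO and 19, 10 and 3 in control.

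DCX encodes doublecortin, a microtubule-binding protein of migrating young neurons. It had 0, 0 and 0 counts in ATG7 KO, 5, 6 and 5 counts in ATG7/SQSTM1 KO, and 7, 4 and 8 counts in control. No count was seen in the 3 ATG7 KO libraries, and the other groups overlapped. With 3 counts over a whole group put in place of a count of 0, as the limit it allows, DCX was 6.16-fold lower in ATG7 KO than in control. On the same footing it was 5.09-fold higher in ATG7/SQSTM1 KO than in ATG7 KO. The counting error of the group with counts is left out, so these folds are not lower bounds. It did not pass the filter on low counts. Without that filter its edgeR adjusted p was 0.001 for ATG7 KO against control, 0.00187 for ATG7/SQSTM1 KO against ATG7 KO and 0.933 for ATG7/SQSTM1 KO against control. The ratio of ATG7/SQSTM1 KO to control was 0.826, with a 95% counting interval from 0.397 to 1.7.

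STMN3 (ENSG00000197457; chromosome 20, 63639705 to 63657682, minus strand) encodes SCLIP, a neuronal stathmin that binds tubulin dimers and destabilises microtubules. Its levels were 22.2, 23.5 and 23.7 CPM in ATG7 KO, 54.2, 53 and 49.8 CPM in ATG7/SQSTM1 KO, and 46.1, 48 and 47.2 CPM in control. The 3 groups did not overlap, with ATG7 KO lowest and ATG7/SQSTM1 KO highest. STMN3 fell by 1.02 on the log2 scale in ATG7 KO against control (SE 0.046, edgeR adjusted p = 4.81e-14). It was higher by 1.18 in ATG7/SQSTM1 KO than in ATG7 KO (SE 0.046, edgeR adjusted p = 4.47e-15). STMN3 was also higher in ATG7/SQSTM1 KO than in control, by 0.15 (SE 0.043, edgeR adjusted p = 0.00751), a call lost without ATG7/SQSTM1 KO replicate 1 (log2 change 0.12, edgeR adjusted p = 0.053).

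The other neuronal stathmins were close to absent from the counts. STMN2, which encodes SCG10, a stathmin of growth cones, had 0 counts in every ATG7 KO library, 4, 0 and 4 counts in ATG7/SQSTM1 KO, and 0 counts in every control library. Counted against the same limit over a group, that is 2.54-fold higher in ATG7/SQSTM1 KO than in ATG7 KO and 2.62-fold higher than in control. These folds leave out the counting error of the few ATG7/SQSTM1 KO counts and are not lower bounds. Without the low-count filter the edgeR adjusted p was 0.101 and 0.139. STMN4 had 2 counts in ATG7/SQSTM1 KO replicate 1 and 0 in the other 8 libraries. A single library's limit of 3 counts lay between 0.0875 and 0.103 CPM, so lower levels were not detectable at this depth. The limit of 3 counts, like the counting interval given for DCX, covers counting error only. In the folds above it covers that of the group with a count of 0 alone.

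NEFM (chromosome 8, 24913012 to 24919098, plus strand) encodes the medium neurofilament subunit and NEFL (24950955 to 24957110, minus strand) the light subunit, on which the others assemble. The genes face each other with 31856 bases between their ends. NEFM stood at 68.2, 64.6 and 62.7 CPM in ATG7 KO, at 107, 109 and 107 CPM in ATG7/SQSTM1 KO, and at 93.3, 101 and 105 CPM in control. The groups did not overlap, with ATG7/SQSTM1 KO highest. NEFM fell by 0.61 on the log2 scale in ATG7 KO against control (SE 0.042, edgeR adjusted p = 5.71e-11). It was higher by 0.72 in ATG7/SQSTM1 KO than in ATG7 KO (SE 0.042, edgeR adjusted p = 3.29e-12). The higher level in ATG7/SQSTM1 KO than in control was small (log2 change 0.11, SE 0.041, edgeR adjusted p = 0.044), and the call was lost in 9 of 16 alternative analyses, over all of which its adjusted p ran from 0.0127 to 0.235. NEFM shares 1706 exonic bases with AF106564.1 on the opposite strand, which held 496 counts in ATG7 KO, 803 in ATG7/SQSTM1 KO and 840 in control.

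NEFL moved least of the 7. Its levels were 49.6, 45.9 and 46.6 CPM in ATG7 KO, 52.3, 53.8 and 54.2 CPM in ATG7/SQSTM1 KO, and 52.9, 54.1 and 58 CPM in control. Each ATG7 KO library lay below all others, by a narrow margin, and the other groups overlapped. NEFL was 13.8% lower in ATG7 KO than in control by the fit, where the percent change was −13.8 (log2 change −0.21, SE 0.043, edgeR adjusted p = 0.000228). It was 12.8% higher in ATG7/SQSTM1 KO than in ATG7 KO (log2 change 0.17, SE 0.043, edgeR adjusted p = 0.00159). Against control, ATG7/SQSTM1 KO differed by −0.04 on the log2 scale (SE 0.043, edgeR adjusted p = 0.493). Of all tested genes, 33.8% had a lower log2 change than NEFL in ATG7 KO against control, compared with 4.79% for MAPT, 5.68% for GAP43, 7.36% for TUBB3, 7.56% for INA, 8.74% for STMN3 and 16.6% for NEFM. The opposite-strand gene AC107373.2 shares 490 exonic bases with NEFL and held 60 counts in ATG7 KO, 87 in ATG7/SQSTM1 KO and 73 in control.

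INA (ENSG00000148798; chromosome 10, 103277163 to 103290351, plus strand) encodes alpha-internexin, a neurofilament subunit of developing and central neurons. It stood at 8.7, 7.28 and 9.06 CPM in ATG7 KO, at 20.8, 18.2 and 19.1 CPM in ATG7/SQSTM1 KO, and at 17.7, 17 and 19.7 CPM in control. ATG7 KO was lower than both other groups in every library, and those overlapped. Its log2 change was −1.12 in ATG7 KO against control (SE 0.087, edgeR adjusted p = 4.14e-10), and it was 1.21 in ATG7/SQSTM1 KO against ATG7 KO (SE 0.087, edgeR adjusted p = 8.63e-11). Between ATG7/SQSTM1 KO and control INA differed by 0.09 (SE 0.081, edgeR adjusted p = 0.398). In each group INA had the lowest mean CPM of the 7, and its SE was the largest.

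GAP43 (ENSG00000172020; chromosome 3, 115623324 to 115721490, plus strand) encodes growth-associated protein 43, a membrane protein of growth cones that links signals to the actin cytoskeleton. Its levels were 9.86, 9.46 and 9.92 CPM in ATG7 KO, 48.7, 44.1 and 44.3 CPM in ATG7/SQSTM1 KO, and 23.8, 24.7 and 23.8 CPM in control. The 3 groups stood far apart, and the ATG7/SQSTM1 KO libraries lay well above control. In ATG7 KO the log2 change against control was −1.31 (SE 0.061, edgeR adjusted p = 7.81e-14). ATG7/SQSTM1 KO exceeded ATG7 KO 4.69-fold (log2 change 2.23, SE 0.059, edgeR adjusted p = 8.01e-18) and control 1.9-fold (log2 change 0.92, SE 0.053, edgeR adjusted p = 1.46e-11). Of all tested genes, 98.6% had a lower log2 change than GAP43 in ATG7/SQSTM1 KO against ATG7 KO, and 96.7% in ATG7/SQSTM1 KO against control.

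**Figure D1:**
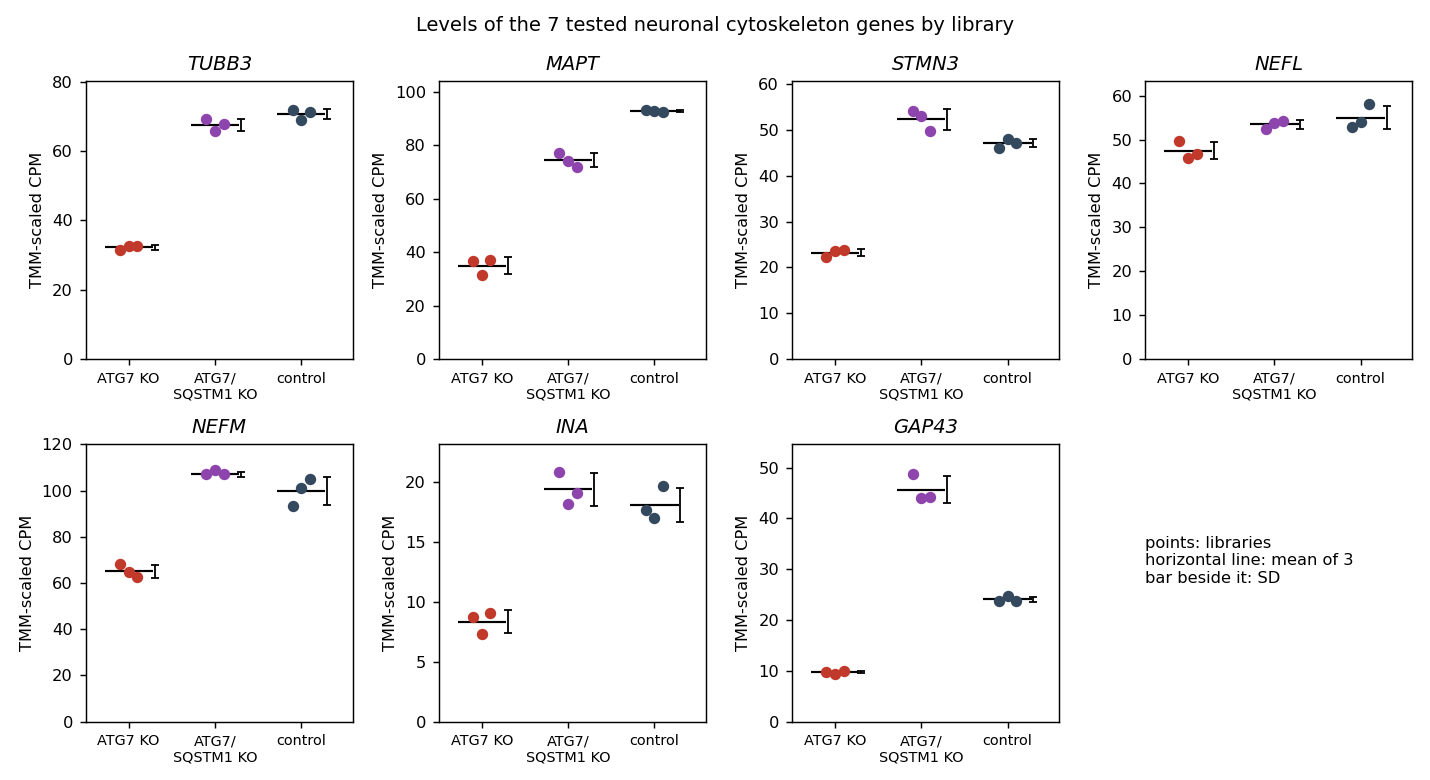
Levels in TMM-scaled CPM (y axis, from 0) of the 7 tested genes in the 3 libraries each of ATG7 KO, ATG7/SQSTM1 KO and control (x axis), with points for libraries, a line for the mean and a bar for the SD. The ATG7 KO points are lowest in all 7 panels, the GAP43 panel has ATG7/SQSTM1 KO at 45.7 CPM on average against 24.1 CPM in control, and the NEFL panel has the narrowest gap.

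**Figure D2:**
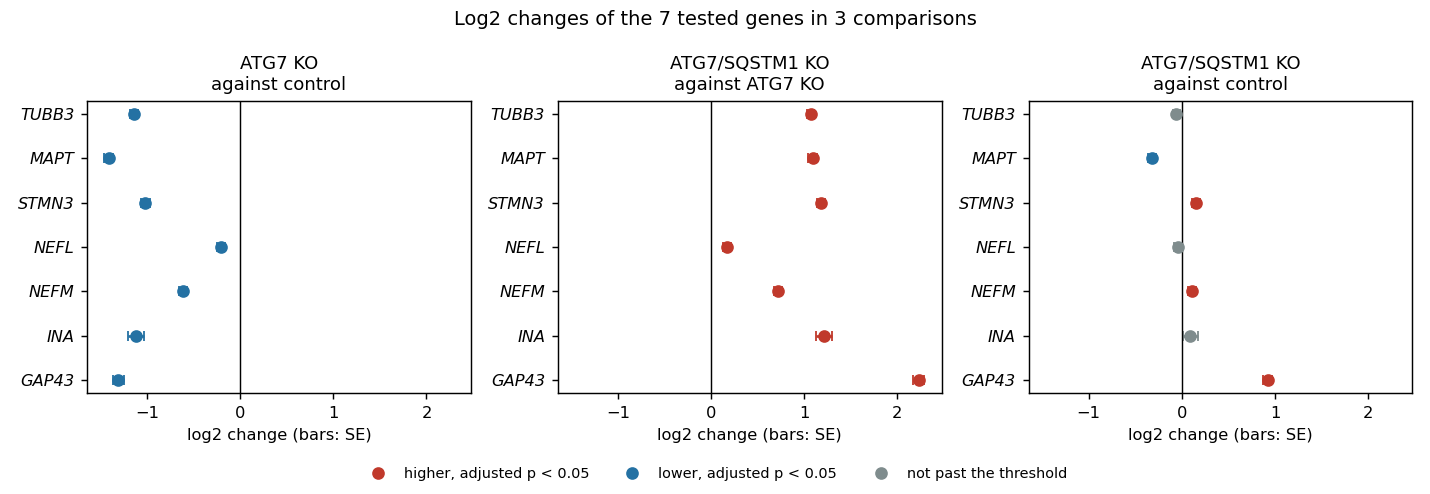
Log2 changes (x axis) with their SE of the 7 tested genes (y axis) in 3 comparisons, red for higher, blue for lower and grey for not past an adjusted p of 0.05. All 7 are below 0 in ATG7 KO against control, between −1.41 for MAPT and −0.21 for NEFL, and in ATG7/SQSTM1 KO against control GAP43 stands apart at 0.92.

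Per kilobase of exon, which allows genes to be compared with each other, NEFM had the highest level of the 7 in every group, with 14.9 ± 0.64 CPM per kilobase in ATG7 KO, 24.5 ± 0.26 in ATG7/SQSTM1 KO and 22.8 ± 1.4 in control (SD, n = 3 each). Below it the order differed between groups. For ATG7 KO it ran NEFL (10.9 ± 0.45), STMN3 (7.64 ± 0.26), TUBB3 (7.26 ± 0.17), GAP43 (4.67 ± 0.12), INA (2.58 ± 0.29) and MAPT (2.35 ± 0.2), and the libraries of STMN3 and TUBB3, and those of INA and MAPT, overlapped. For ATG7/SQSTM1 KO it ran GAP43 (21.9 ± 1.3), STMN3 (17.3 ± 0.74), TUBB3 (15.3 ± 0.39), NEFL (12.3 ± 0.23), INA (5.99 ± 0.42) and MAPT (4.99 ± 0.18), with no overlap between neighbours. For control it ran TUBB3 (16 ± 0.34), STMN3 (15.5 ± 0.31), NEFL (12.7 ± 0.61), GAP43 (11.6 ± 0.26), MAPT (6.22 ± 0.032) and INA (5.61 ± 0.43), with overlap between TUBB3 and STMN3. NEFL thus followed NEFM directly in ATG7 KO, while GAP43 did in ATG7/SQSTM1 KO and TUBB3 did in control. Lengths are the union of all annotated exons of a gene, so a gene with much unused sequence, such as MAPT at 14920 bases, is set low by this scale.

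TUBB3 and STMN3 made up a smaller part of their families in ATG7 KO than in the other groups. TUBB3 made up 0.653 ± 0.02% of beta-tubulin counts per kilobase in ATG7 KO and 1.65 ± 0.04% in ATG7/SQSTM1 KO, against 1.59 ± 0.027% in control (SD, n = 3 each). The ATG7 KO libraries, at 0.63, 0.663 and 0.666%, lay below all others. STMN3 made up 10.5 ± 0.65% of the stathmins in ATG7 KO, 19.1 ± 0.8% in ATG7/SQSTM1 KO and 17.9 ± 0.89% in control, and nearly all of the rest was STMN1, the stathmin of dividing cells, with 89.5 ± 0.65%, 80.9 ± 0.8% and 82.1 ± 0.89% in the same order of groups. In each of these shares ATG7 KO did not overlap the other groups (exact permutation test, two-sided, p = 0.10, the smallest that 3 against 3 libraries allow). ATG7/SQSTM1 KO and control overlapped in all 3 shares (exact permutation test, two-sided, p = 0.20).

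The makeup of the neurofilament subunits differed as well, counted over NEFL, NEFM, NEFH, INA and PRPH. NEFL held 37.8 ± 0.11% in ATG7 KO, 27.8 ± 0.52% in ATG7/SQSTM1 KO and 29 ± 0.18% in control, and no libraries of different groups overlapped (exact permutation test, two-sided, p = 0.10 for each pair). INA held 8.91 ± 0.93%, 13.5 ± 0.94% and 12.8 ± 0.55% in those groups, with ATG7 KO apart from both others (exact permutation test, two-sided, p = 0.10) and ATG7/SQSTM1 KO overlapping control (p = 0.40 by the same test). NEFM held 51.3 ± 1% in ATG7 KO, 55.2 ± 0.66% in ATG7/SQSTM1 KO and 52 ± 1.2% in control (SD, n = 3 each). Here ATG7/SQSTM1 KO was apart from both (exact permutation test, two-sided, p = 0.10), and ATG7 KO overlapped control (p = 0.50 by the same test).

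Ratios between members within a library, which scaling cannot move, were chosen after the values were seen. A p-value for such a ratio therefore only describes how these libraries separate. GAP43 per kilobase was 0.644 ± 0.027 times TUBB3 in ATG7 KO, 1.43 ± 0.055 times in ATG7/SQSTM1 KO and 0.724 ± 0.032 times in control, with no overlap between groups (exact permutation test, two-sided, p = 0.10 for each pair). MAPT to TUBB3 was 0.324 ± 0.033 in ATG7 KO and 0.327 ± 0.011 in ATG7/SQSTM1 KO, which overlapped, against 0.39 ± 0.0083 in control, which overlapped neither. STMN3 to TUBB3 was 1.05 ± 0.014 in ATG7 KO, 1.13 ± 0.052 in ATG7/SQSTM1 KO and 0.974 ± 0.039 in control (SD, n = 3 each). These 3 groups did not overlap either.

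**Figure D3:**
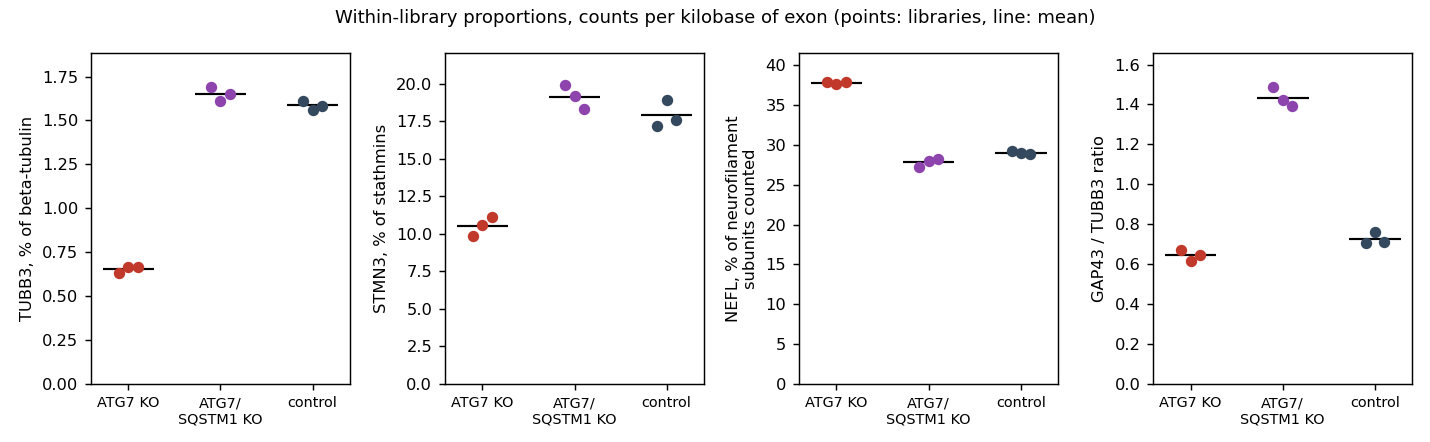
Within-library proportions from counts per kilobase of exon in ATG7 KO, ATG7/SQSTM1 KO and control (x axis), with points for libraries and a line for the mean: TUBB3 in percent of beta-tubulin, STMN3 in percent of stathmins, NEFL in percent of the neurofilament subunits counted, and the ratio of GAP43 to TUBB3 (y axes from 0). TUBB3 and STMN3 are lowest in ATG7 KO, at 0.653% and 10.5%, NEFL is highest there at 37.8%, and the GAP43 ratio is highest in ATG7/SQSTM1 KO at 1.43.

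Genes most like each member were found as those with the smallest root mean square difference of log2(CPM + 0.1), centred on each gene's mean over the 9 libraries, among 13021 genes. They were NPTXR (0.0477) and FOXO6 (0.0489) for TUBB3, GAS2 (0.0693) and IGSF9 (0.0695) for MAPT, HOOK1 (0.055) and PPM1L (0.0603) for STMN3, PPP1R21 (0.035) and CDK8 (0.0351) for NEFL, STK39 (0.0484) and KIF21A (0.0502) for NEFM, RTN1 (0.0748) and REEP2 (0.0797) for INA, and SATB1 (0.0837) and PLCB1 (0.111) for GAP43. The profile of GAP43 was rare, with 29 genes within a difference of 0.2, and that of NEFL common, with 5834. For the others the number was 242 for MAPT, 319 for INA, 439 for STMN3, 451 for TUBB3 and 1335 for NEFM. SATB1, nearest to GAP43, averaged 4.73 CPM in ATG7 KO, 19.7 CPM in ATG7/SQSTM1 KO and 11.5 CPM in control.

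The other beta-tubulins did not all move with TUBB3. Of 7 tested beta-tubulin genes other than TUBB3, 4 rose and 2 fell in ATG7 KO against control. The shares over all tested genes were 28.4% higher and 28.3% lower. In ATG7/SQSTM1 KO against ATG7 KO 2 of the 7 rose and 4 fell, beside 30.5% and 29.9% of all tested genes. TUBB, the main beta-tubulin of dividing cells, averaged 2858 ± 39.4 CPM in ATG7 KO, 2323 ± 8.26 CPM in ATG7/SQSTM1 KO and 2540 ± 19.2 CPM in control (SD, n = 3 each), a log2 change of 0.17 in ATG7 KO against control (SE 0.02, edgeR adjusted p = 1.9e-07). TUBB4B and TUBB6 rose by 0.22 and 0.25 on the log2 scale (SE 0.025 and 0.035, edgeR adjusted p = 9.12e-08 and 2.45e-06). TUBB2B, a beta-tubulin of developing neurons, fell with TUBB3, by 0.97 (SE 0.066, edgeR adjusted p = 2.1e-09), to 24.8 ± 0.608 CPM in ATG7 KO against 48.4 ± 1.92 CPM in control. TUBB2B and its near-identical copy TUBB2A (23.5 ± 0.51, 20.9 ± 1.01 and 29.1 ± 1.15 CPM in ATG7 KO, ATG7/SQSTM1 KO and control) can share reads, so their counts are uncertain. Of 8 tested alpha- and gamma-tubulin genes 3 rose and 2 fell in ATG7 KO: TUBA1A, the alpha-tubulin of neurons, fell by 0.43 (SE 0.025, edgeR adjusted p = 2.87e-12) and TUBA1C rose by 0.45 (SE 0.025, edgeR adjusted p = 1.93e-12), again between near-identical copies.

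Among 26 tested microtubule-associated protein genes, 8 rose and 14 fell in ATG7 KO against control, with a median log2 change of −0.23. Of all tested genes 28.4% rose and 28.3% fell there. In ATG7/SQSTM1 KO against ATG7 KO 14 of the 26 rose and 9 fell, beside 30.5% and 29.9% of all tested genes. Among the 8 that rose was NAV3, by 1.69 on the log2 scale (SE 0.13, edgeR adjusted p = 2.18e-10). It averaged 10.5 ± 0.79, 6.54 ± 0.494 and 3.23 ± 0.621 CPM in ATG7 KO, ATG7/SQSTM1 KO and control. MAP1B, which stabilises microtubules in growing axons, averaged 89.8 ± 3.88 CPM in ATG7 KO, 170 ± 8.11 CPM in ATG7/SQSTM1 KO and 223 ± 6.38 CPM in control (log2 change −1.31 in ATG7 KO against control, SE 0.038, edgeR adjusted p = 1.36e-16). It stayed below control in ATG7/SQSTM1 KO, as MAPT did (log2 change −0.39, SE 0.037, edgeR adjusted p = 4.9e-08). MAP2, the dendritic relative of tau, averaged 12 ± 1.07, 34.4 ± 3.04 and 19.6 ± 0.67 CPM in ATG7 KO, ATG7/SQSTM1 KO and control, and DCLK1, a doublecortin-like kinase, 4.19 ± 0.278, 12.6 ± 0.676 and 5.53 ± 0.577 CPM. Both exceeded control in ATG7/SQSTM1 KO, as GAP43 did, by 0.81 for MAP2 and 1.19 for DCLK1 on the log2 scale (SE 0.07 and 0.1, edgeR adjusted p = 8.26e-09 and 7.99e-09).

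All 5 genes of the CRMP family, tubulin-binding proteins of axon growth, fell in ATG7 KO against control and rose in ATG7/SQSTM1 KO against ATG7 KO. DPYSL3 averaged 94.8 ± 2.13 CPM in ATG7 KO, 180 ± 1.22 CPM in ATG7/SQSTM1 KO and 295 ± 5.26 CPM in control (log2 change −1.64 in ATG7 KO against control, SE 0.029, edgeR adjusted p = 9.72e-21). DPYSL5 averaged 28 ± 1.27, 67.9 ± 1.32 and 75.5 ± 0.979 CPM in the same groups. Of 16 tested axonal motor genes 3 rose and 7 fell in ATG7 KO against control, and 9 rose and 6 fell in ATG7/SQSTM1 KO against ATG7 KO. Over all tested genes 28.4% rose and 28.3% fell in the former comparison, and 30.5% rose and 29.9% fell in the latter. KIF1A, the kinesin of synaptic vesicle precursors, averaged 23 ± 1.12 CPM in ATG7 KO, 107 ± 3.53 CPM in ATG7/SQSTM1 KO and 140 ± 3.07 CPM in control (log2 change −2.60 in ATG7 KO against control, SE 0.042, edgeR adjusted p = 3.24e-21).

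Intermediate filament genes outside the members were split. Of 9 tested, 4 rose (KRT8, KRT18, VIM and NES) and 3 fell in ATG7 KO against control, among them NEFH and PRPH. The shares over all tested genes were 28.4% higher and 28.3% lower. NEFH, the heavy neurofilament subunit, fell to 1.17 ± 0.075 CPM in ATG7 KO, with 3.08 ± 0.0636 CPM in ATG7/SQSTM1 KO and 6.14 ± 0.538 CPM in control (log2 change −2.39 in ATG7 KO against control, SE 0.15, edgeR adjusted p = 1.52e-11). PRPH, which encodes peripherin of peripheral neurons, averaged 1.12 ± 0.0387, 3.24 ± 0.615 and 4.54 ± 0.922 CPM in those groups and fell by 2.02 (SE 0.19, edgeR adjusted p = 9.77e-09). KRT8, a keratin of simple epithelia, averaged 98 ± 3.65 CPM in ATG7 KO, 75.4 ± 6.27 CPM in ATG7/SQSTM1 KO and 18 ± 0.639 CPM in control, and it was higher than control in both knockouts (log2 changes 2.45 and 2.07, SE 0.056 and 0.056, edgeR adjusted p = 1.36e-16 and 7.78e-15). VIM, the vimentin of mesenchymal cells, averaged 538 ± 15.3, 452 ± 11.4 and 422 ± 10.2 CPM, and NES, the nestin of progenitor cells, 4.11 ± 0.86, 1.42 ± 0.179 and 0.84 ± 0.0977 CPM, in the same order. Both rose in ATG7 KO against control, by 0.35 and 2.29 on the log2 scale (SE 0.028 and 0.21, edgeR adjusted p = 5.54e-10 and 4.37e-09).

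Of 10 tested growth cone membrane protein genes other than GAP43, none rose and 5 fell in ATG7 KO against control, while 5 rose and 2 fell in ATG7/SQSTM1 KO against ATG7 KO. The share called over all tested genes was 56.7% in the former comparison and 60.5% in the latter. BASP1, a membrane protein often grouped with GAP43, averaged 27.7 ± 1.27 CPM in ATG7 KO, 33.7 ± 2.39 CPM in ATG7/SQSTM1 KO and 56 ± 1.54 CPM in control. BASP1 stayed below control in ATG7/SQSTM1 KO (log2 change −0.73, SE 0.05, edgeR adjusted p = 2.47e-10), where GAP43 was above it. Of 7 tested spectrin and ankyrin genes 3 rose and 4 fell in ATG7 KO: ANK2 fell by 1.13 (SE 0.041, edgeR adjusted p = 1.25e-15) and ANK3 rose by 0.92 (SE 0.038, edgeR adjusted p = 1.32e-14). Kinase and phosphatase genes for tau and doublecortin split 6 higher to 7 lower of 14 tested. Of 18 tested tubulin folding and modification genes 4 rose and 6 fell in ATG7 KO against control, or 1 and 7 when libraries were scaled by their totals. Between both knockouts 9 of these were higher and 5 lower in ATG7/SQSTM1 KO, or 10 and 3 when scaled by totals.

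Most regulators of neuronal transcription fell in ATG7 KO. Of 17 tested genes 2 rose and 14 fell in ATG7 KO against control, with a median log2 change of −1.47. In ATG7/SQSTM1 KO against ATG7 KO 14 rose and 2 fell. The shares over all tested genes were 28.4% higher and 28.3% lower in the former comparison, and 30.5% and 29.9% in the latter. NEUROD1, a neurogenic transcription factor, averaged 73.3 ± 0.93 CPM in ATG7 KO, 237 ± 6.81 CPM in ATG7/SQSTM1 KO and 194 ± 3.89 CPM in control (log2 change −1.41 in ATG7 KO against control, SE 0.031, edgeR adjusted p = 4.05e-19). REST, the repressor of neuronal genes, was higher in both knockouts than in control, with 36.6 ± 1.92 CPM in ATG7 KO, 31 ± 1.61 CPM in ATG7/SQSTM1 KO and 25.8 ± 1.17 CPM in control (log2 changes 0.51 and 0.26, SE 0.055 and 0.055, edgeR adjusted p = 6.78e-08 and 0.00057). Of 14 tested neuronal RNA-binding protein genes, which include ELAVL proteins known to bind the mRNA of GAP43 and tau, 1 rose and 9 fell in ATG7 KO against control, and 10 rose and 2 fell in ATG7/SQSTM1 KO against ATG7 KO. ELAVL4, known as HuD, averaged 1.5 ± 0.235 CPM in ATG7 KO, 10 ± 1.3 CPM in ATG7/SQSTM1 KO and 5.58 ± 0.584 CPM in control (log2 change 0.85 in ATG7/SQSTM1 KO against control, SE 0.13, edgeR adjusted p = 1.58e-05).

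**Figure D4:**
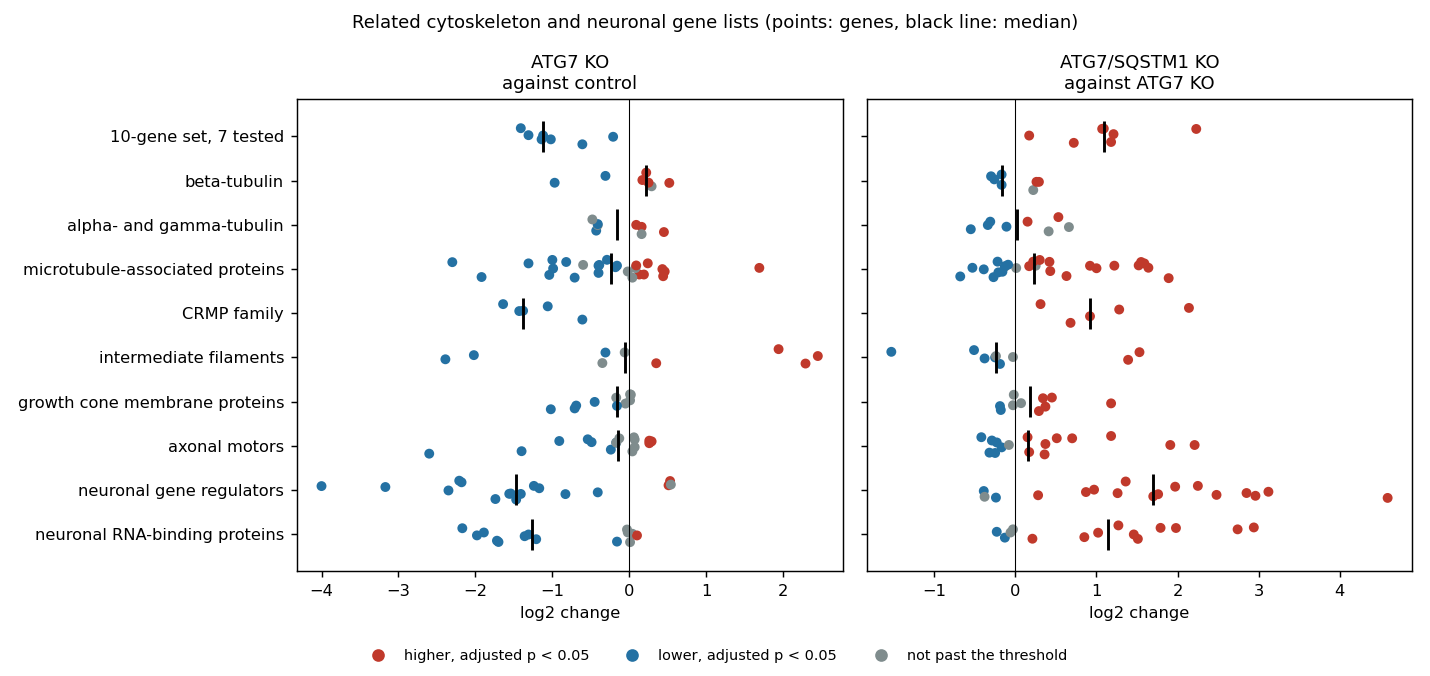
Log2 changes (x axis) of the 7 tested members and of the tested genes in 9 related lists (y axis) in ATG7 KO against control and in ATG7/SQSTM1 KO against ATG7 KO, red for higher, blue for lower and grey for not past an adjusted p of 0.05, with a black line at the list's median. The members, the CRMP family, the gene regulators and the RNA-binding proteins have medians of −1.12, −1.38, −1.47 and −1.26 in ATG7 KO against control, while the beta-tubulins have 0.22.

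Summed levels of markers of other cell types also differed, though not between every pair of groups. Glia sums overlapped between ATG7 KO and control, and blood cell sums between ATG7/SQSTM1 KO and control. The summed level of 9 mature neuron markers was 42.9 to 46 CPM in ATG7 KO, 99.6 to 106 CPM in ATG7/SQSTM1 KO and 93.6 to 96.9 CPM in control, with 8 of 9 lower in ATG7 KO than in control. That list holds NEFH, ELAVL3 and ELAVL4, which are counted above as well. The summed level of 8 fibroblast markers was 661 to 700 CPM in ATG7 KO, 331 to 353 CPM in ATG7/SQSTM1 KO and 182 to 197 CPM in control. Of 7 tested, 5 were higher in ATG7 KO than in control. The shares over all tested genes in that comparison were 28.4% higher and 28.3% lower. Glia markers summed to 19.6 to 22.1, 16.5 to 18.3 and 19.9 to 20.9 CPM in those groups, and blood cell markers to 9.52 to 9.96, 4.05 to 4.64 and 4.3 to 5.51 CPM, with CD3E, HBB and LYZ at 0 in all 9 libraries. The part of a change in cell makeup in the members' levels was not tested, and in bulk RNA fewer cells that transcribe a gene and less RNA of it per cell cannot be told apart.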

How the data were processed

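Per the labels' protocols, total RNA was depleted of rRNA and made into strand-specific dUTP libraries. The submitters' processing notes name HISAT2 and hg38. How reads were counted, with which annotation and strand option, is not given in the sources used here, so reads of a gene and of an overlapping antisense gene may not be told apart. What the authors deposited are whole-number counts for each gene in each library, and the values show no sign of normalization. In the library columns 362598 cells are missing and none holds a 0, so missing cells were read as 0, and 31038 of the 67140 genes have no count. A numbering row was left out, as was 1 column without a label, which holds 0 throughout. GENCODE 29 gave coordinates and union exonic lengths on GRCh38, with 58503 gene IDs matched, which hold 99.96% of counts.

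Groups follow the labels. Genes were filtered with filterByExpr (minimum count 10), which left 18847, and 7 of the 10 members. Libraries were scaled with TMM (factors 0.977 to 1.01) and tested with a robust quasi-likelihood fit of all 9 libraries (edgeR 4.0.16, R 4.3.3, 6 residual degrees of freedom, common biological coefficient of variation 6.39%), calling genes at an adjusted p under 0.05 (Benjamini-Hochberg). Shares and ratios came from counts per kilobase and were compared by exact permutation tests. Alternatives were other scalings and filters, DESeq2 1.42.0, a fit of the 6 libraries compared, a replicate block, plain counts in shares and leaving out each library. The fit was tested on simulated counts.

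The members, the lists and the naming rule were chosen with earlier results of these data known. By that rule every member is named, then from each list up to 4 called genes with the smallest p, a set of close relatives, and the 2 genes with the most similar profile. One gene that the rule names is not reported here.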

Additional observations from a re-analysis of the deposited data

How the results depend on the processing

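No direction was reversed under any alternative run. Of the members, 7 were called lower in ATG7 KO than in control and 7 higher in ATG7/SQSTM1 KO than in ATG7 KO under every alternative but the one with no low-count filter, which gave 8 because DCX was added. Between ATG7/SQSTM1 KO and control 4 were called, and 3 with library totals alone, DESeq2 or the replicate block. Leaving out 1 library gave 2 to 4, with 2 without ATG7/SQSTM1 KO replicate 1, where STMN3 and NEFM lost their calls.

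The labels do not say that replicate numbers mark shared cultures, and same-numbered libraries did not deviate together, with correlations from −0.287 to 0.076. With the numbers as a replicate block, 7 members were called between ATG7 KO and control, 7 between both knockouts, and 3 between ATG7/SQSTM1 KO and control, where NEFM had an edgeR adjusted p of 0.0668.

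Counts not divided by length moved some shares, by construction. In ATG7 KO minus control, the difference in percentage points became −1.32 for TUBB3, 4.19 for STMN1, −4.19 for STMN3 and 8.51 for NEFL. In ATG7/SQSTM1 KO minus ATG7 KO it became 1.41 for TUBB3, −4.89 for STMN1, 4.87 for STMN3 and 3.6 for INA. Among the members and the set of close relatives named in the text, calls lost in at least 1 alternative were those of PRPH, NEFM and STMN3 between ATG7/SQSTM1 KO and control. TUBB2A lost its call between both knockouts, while TUBB6 gained one between ATG7/SQSTM1 KO and control. Depth limits DCX, STMN2 and STMN4, and 3 libraries a group limit the exact tests to p = 0.10.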
